A study of Homo sapiens with 3 samples.

Results

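First-exon 5′-UTR peaks are stretches of ribosome-protected RNA that the peak annotation places in the untranslated leader of an mRNA and in exon 1 of the annotated transcript. They were taken as every listed peak whose annotated region was 5′-UTR and whose exon was exon 1 of any number, and 2702 of 46819 listed peaks met this rule. They were 505 of the 11219 peaks of the vector sample, 921 of the 19920 of wild-type and 1276 of the 15680 of G325E. Ribosome profiling, which sequences the RNA fragments that ribosomes shield from nuclease, was performed in HEK293T, a line derived from human embryonic kidney. The vector sample carried empty pCDNA3.1, the wild-type sample FLAG-tagged wild-type DDX3X and the G325E sample FLAG-tagged DDX3X G325E, a medulloblastoma-associated substitution in this DEAD-box RNA helicase. All 3 samples were transient transfections of 24 h, and no removal of the cells' own DDX3X is described in the sources used here. Per the labels, all 3 were also given 2 µg/ml of harringtonine (90 s), a drug that stalls ribosomes as they begin translation, and then 100 µg/ml of cycloheximide, a drug that stops ribosomes along the coding sequence, whereas in the study's methods cycloheximide is the sole drug.

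There was 1 library per construct (no replicates). No test over samples exists for any comparison below, and a difference between samples cannot be told apart from a difference between libraries. The intervals given are 95% binomial intervals (Wilson's for a share, Newcombe's for a difference of shares) and cover counting error only, taking peaks as independent, although 1 gene can hold several. The lists gave positions without read counts or peak heights, so the reads behind a peak are not in the files analysed here, and a peak missing from a list is not evidence that ribosomes were missing. The study does state the depth of each library, where wild-type had the most mapped reads after removal of duplicates and G325E the fewest, and peak numbers were not corrected for it here. Peaks were numbered in genome order, and the vector and wild-type lists skipped 1952 (14.8%) and 3099 (13.5%) of their numbers whereas the G325E list skipped 0. On DDX3X itself the vector list had 0 peaks, wild-type 32 and G325E 9, of which 0 were first-exon 5′-UTR peaks. The labels call the cell type neuronal: the neurofilament genes NEFL and NEFM had 7 to 13 and 16 to 33 peaks per sample and TUBB3 had 4 to 8, whereas the neuronal markers INA, MAP2 and STMN2 had 0 in all 3 samples. Of 4 epithelial markers KRT18 alone had peaks (10, in wild-type), and the blood and liver markers examined had 0.

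The 5′-UTR is the stretch that the small ribosomal subunit travels from the cap before it reaches the start codon. Structure in the leader, often from runs of G and C, slows this scanning, and DEAD-box helicases such as DDX3X and eIF4A act on such structure. Upstream start codons and upstream open reading frames (uORFs) in the leader can also capture ribosomes before the main coding sequence.

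To show what lies under these peaks, 30 bases around the midpoint of 1 locus are printed for 12 genes, read from GRCh37 on the strand of the gene. A locus is a stretch of overlapping first-exon 5′-UTR peaks merged over the samples. Capitals mark ATG, CGGCGG or GGGG. The first set is from 4 of the genes with the most such peaks. These are U2AF2 at chr19:56166392-56166421 (plus strand), JUN at chr1:59248769-59248798 (minus), MESDC1 at chr15:81293962-81293991 (plus) and ATP2A2 at chr12:110719555-110719584 (plus). The loci of U2AF2, JUN and ATP2A2 had a peak in all 3 samples and that of MESDC1 in wild-type and G325E.
U2AF2: ggcggaagtagccgaagcggctggagcggg
JUN: cccgaaacttgtgcgcgcagcccaaactaa
MESDC1: gcgcccGGGGcggccgcgcgtcccagagag
ATP2A2: cgcGGGGacgggaggcgaggccggccgggc

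The second set is from 4 genes whose number of peaks in G325E exceeded that in wild-type, namely EGLN1 at chr1:231557960-231557989 (minus), STK11 at chr19:1206047-1206076 (plus), UBE3A at chr15:25683691-25683720 (minus) and UBE2D2 at chr5:138941194-138941223 (plus). The first 3 loci were listed in G325E and not in the other samples, and that of UBE2D2 in wild-type and G325E.
EGLN1: gggccgggccgcccgggacgctgaggcggc
STK11: ggagcccccgccgccgcgccgccccgcgga
UBE3A: aggcggtggcgggcggaggCGGCGGgcgag
UBE2D2: ggcaggcccaggagctgagtgggccccggc

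The third set is from 4 genes whose number of peaks in wild-type exceeded that in G325E, namely TIAL1 at chr10:121356106-121356135 (minus), UBL3 at chr13:30424493-30424522 (minus), ELOVL6 at chr4:111119606-111119635 (minus) and CACYBP at chr1:174969184-174969213 (plus). The loci of TIAL1 and ELOVL6 were listed in vector and wild-type, that of UBL3 in wild-type and G325E, and that of CACYBP in wild-type.
TIAL1: ccggagcgggctGGGGGGagagagcccgag
UBL3: gaaggcggagaccGGGGaggCGGCGGCGGg
ELOVL6: gacgaccgctggagaccgagcggcgtGGGG
CACYBP: ggtgtgggcgcaggctgcagcgccgcgact

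The number of ATG triplets was 0 in each of the 12 stretches. GC content was 90.0%, 93.3%, 86.7% and 80% in those of EGLN1, STK11, UBE3A and UBE2D2, and 90.0%, 86.7% and 73.3% in those of ATP2A2, MESDC1 and U2AF2. It ran from 76.7% to 83.3% in the third set and was lowest in JUN, at 56.7%. The locus midpoints lay 26, 37, 64 and 638 nt upstream of the start codon in ATP2A2, JUN, U2AF2 and MESDC1. They lay 171.5, 235, 341 and 851 nt upstream in UBE2D2, UBE3A, EGLN1 and STK11, and 118, 141, 144 and 862.5 nt upstream in CACYBP, ELOVL6, TIAL1 and UBL3. The loci nearest the start codon were thus in the first set, and each set held a far locus.

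First-exon 5′-UTR peaks took a larger share of the G325E list than of the other lists. Shares were taken over mRNA-class peaks, meaning those annotated to a 5′-UTR, a coding sequence or a 3′-UTR (6254, 11620 and 7089 in vector, wild-type and G325E). First-exon 5′-UTR peaks made up 8.07% (7.43 to 8.78) of them for vector, 7.93% (7.45 to 8.43) for wild-type and 18.0% (17.1 to 18.9) for G325E. The share in G325E was 10.1 percentage points (9.06 to 11.1) above wild-type, a ratio of 2.27, and 9.92 points (8.80 to 11.0) above vector. The share in wild-type differed from that in vector by −0.15 points (−0.997 to 0.67), an interval that holds 0. When the samples were weighted to the same GC content, the difference of G325E from wild-type was 2.84 points and from vector 2.82 points. In genes with a peak in all 3 samples the differences were 4.46 and 4.57 points, and in those genes at equal GC content 0.520 and 1.19 points. No interval was computed for these weighted or restricted values.

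Later exons of leaders held few peaks in every sample. Peaks of 5′-UTRs in exon 2 or beyond numbered 62, 107 and 83 in vector, wild-type and G325E, which is 0.99% (0.77 to 1.27), 0.92% (0.76 to 1.11) and 1.17% (0.95 to 1.45) of mRNA-class peaks. The difference of G325E from wild-type there was 0.25 points (−0.05 to 0.57) and from vector 0.18 points (−0.18 to 0.53), and both intervals hold 0. The first exon therefore held 89.1% (86.2 to 91.4) of all 5′-UTR peaks for vector, 89.6% (87.6 to 91.3) for wild-type and 93.9% (92.5 to 95.05) for G325E.

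The coding part of first exons showed a difference of similar ratio to the leader. In transcripts of more than 1 exon, coding peaks of exon 1 were 10.6% (9.86 to 11.4) of mRNA-class peaks for vector, 9.93% (9.40 to 10.5) for wild-type and 23.5% (22.5 to 24.5) for G325E. The difference of G325E from wild-type was 13.6 points (12.5 to 14.7), a ratio of 2.37. Peaks within about 100 bp of a transcription start site are placed by the annotation in a promoter-TSS class and are not first-exon 5′-UTR peaks. That class held 23.0%, 21.1% and 34.7% of all listed peaks in vector, wild-type and G325E. The larger share in G325E was thus seen in the promoter-TSS class, in first-exon leaders and in first-exon coding sequence.

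**Figure D1:**
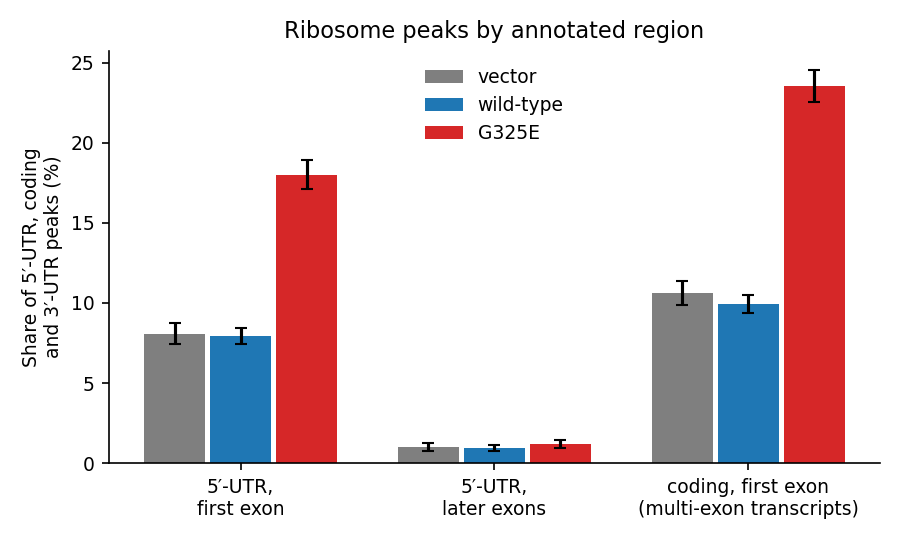
Bars give the share of mRNA-class peaks (5′-UTR, coding and 3′-UTR, in percent) in 3 regions for vector, wild-type and G325E, with 95% Wilson intervals as error bars (counting error only, 1 library per bar). First-exon 5′-UTR peaks stood at 18.0% in G325E against 8.07% and 7.93%, while later-exon 5′-UTR peaks lay between 0.92% and 1.17%.

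The peaks of G325E were also longer. Median length was 34, 33 and 42 bp in vector, wild-type and G325E, with upper quartiles of 59, 58 and 79 bp and maxima of 278, 311 and 376 bp. Median lengths of coding peaks were 36, 35 and 38 bp in the same order. First-exon 5′-UTR peaks covered 23485, 41615 and 78321 bases in vector, wild-type and G325E. These are 8.17%, 8.06% and 21.1% of the bases of mRNA-class peaks.

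Along the leader, the peaks of the 3 samples lay at similar places. The nearest transcription start site was 100 bp away or more for every one of these peaks, a limit set by the promoter-TSS class, and the median distance was 200, 208 and 211 bp in vector, wild-type and G325E. For the peaks whose midpoint fell in the 5′-UTR of the gene's canonical transcript (388, 744 and 1064), the median distance to the start codon was 92.5, 103.5 and 99.5 nt of mRNA. The median position, from 0 at the cap to 1 at the start codon, was 0.62, 0.61 and 0.63. Median length of the whole leader, each peak counting once, was 280, 301 and 310 nt.

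Differences appeared at the ends of this distribution. A midpoint within 15 nt of the start codon, close enough for a 31-nt window to reach it, was found for 13.7% (10.7 to 17.5) of these peaks for vector, 11.5% (9.39 to 13.99) for wild-type and 8.22% (6.71 to 10.0) for G325E. Within 50 nt the shares were 32.0% (27.5 to 36.8), 28.5% (25.4 to 31.8) and 28.2% (25.6 to 30.97). Peaks over 500 nt upstream were 3.87% (2.36 to 6.28) for vector, 8.47% (6.67 to 10.7) for wild-type and 6.20% (4.91 to 7.82) for G325E. Within 15 nt the intervals of vector and G325E do not overlap, whereas within 50 nt those of all 3 samples do. These intervals take peaks as independent, although 1 gene can hold several far peaks. MESDC1 had 0, 14 and 13 peaks in vector, wild-type and G325E, 320 to 1199 nt upstream. UBL3 had 0, 11 and 6, 252 to 1031 nt upstream, while BMPR2 had 6, 6 and 5, 540 to 1023 nt upstream.

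**Figure D2:**
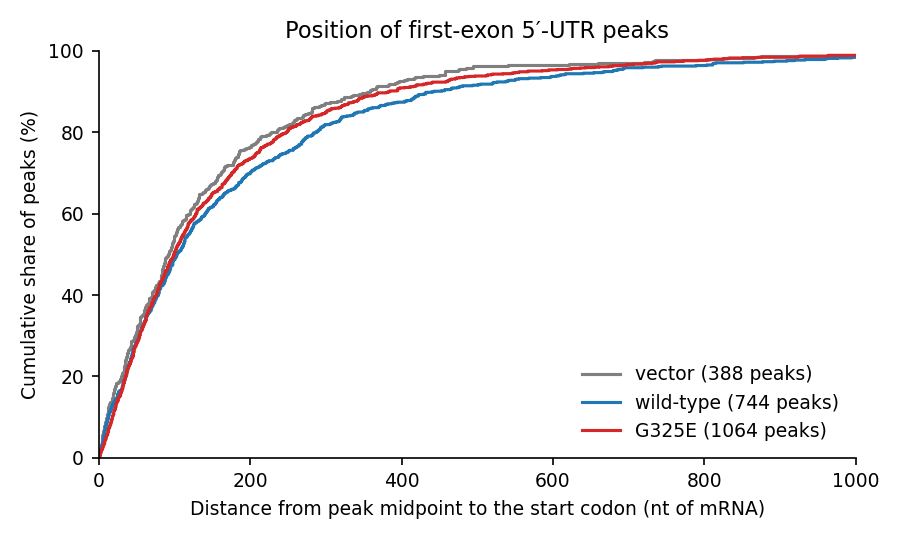
Lines give, for each sample, the cumulative share of first-exon 5′-UTR peaks (percent) by distance of the midpoint from the start codon of the canonical transcript (nt of mRNA). The axis ends before the longest distances. The 3 lines stay close, with medians of 92.5 nt for vector, 103.5 nt for wild-type and 99.5 nt for G325E.

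Most of these peaks lay on the strand of their gene, with a minority on the other strand. Of the peaks whose gene has a strand in the annotation, 60 of 480 of the vector list (12.5%, 9.84 to 15.8), 135 of 892 of the wild-type list (15.1%, 12.9 to 17.6) and 201 of 1256 of the G325E list (16%, 14.1 to 18.1) were listed on the opposite strand. Among coding peaks this share was 3.18%, 3.37% and 6.94%. Without opposite-strand peaks the difference of G325E from wild-type was 9.55 points. What the opposite-strand peaks are was not tested.

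The bases under first-exon 5′-UTR peaks were richer in GC in G325E. In the 31 nt around the midpoint, mean GC content and its SD over peaks were 71.0% ± 11.8 for the 505 vector peaks, 70.7% ± 11.1 for the 921 of wild-type and 77.3% ± 10.9 for the 1276 of G325E. GC content of at least 80% was found in 26.3% (22.7 to 30.3), 22.4% (19.8 to 25.2) and 46.6% (43.8 to 49.3) of peaks. At 90% or more there were 12 peaks for vector (2.38%, 1.36 to 4.11), 11 for wild-type (1.19%, 0.67 to 2.13) and 176 for G325E (13.8%, 12.01 to 15.8). At the other end, below 60%, there were 78, 128 and 84 peaks (15.4%, 13.9% and 6.58%).

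For scale, windows of 31 nt were laid along the first-exon leaders of canonical transcripts beyond 100 nt from the start site. Over all genes (46860 windows, 8062 genes) the mean GC content was 65.5%, and over the genes that had at least 1 of these peaks (3431 windows, 522 genes) it was 73.3%. The means of vector and wild-type peaks lay below this second value, and that of G325E peaks above it. The genes behind it were pooled over the 3 samples, and 268 of the 750 had such a peak in G325E alone. It is therefore not the mean of the leaders with a peak in vector or in wild-type. The same pooled genes are the comparison for motifs and uORFs below.

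GC content moved with the share of first-exon 5′-UTR peaks in every sample. In wild-type the share of mRNA-class peaks in first-exon leaders was 1.70% (1.28 to 2.25) for peaks below 50% GC, 7.27% (6.42 to 8.22) at 60 to 70% and 28.9% (25.6 to 32.4) at 80 to 90%. In G325E the shares in the same classes were 4.76% (3.19 to 7.04), 8.78% (7.57 to 10.2) and 32.6% (30.1 to 35.2). In vector they were 1.93% (1.33 to 2.79), 6.52% (5.44 to 7.78) and 30.6% (26.3 to 35.3). Peaks at 80 to 90% GC were 6.32% of all mRNA-class peaks for vector, 5.81% for wild-type and 18.1% for G325E, so the G325E list as a whole held more GC-rich peaks.

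Within a GC class the samples were closer than over all peaks. The difference of G325E from wild-type was 3.06 points (1.40 to 5.38) below 50% GC, 2.86 (1.50 to 4.45) at 50 to 60%, 1.52 (−0.02 to 3.14) at 60 to 70%, 3.76 (1.18 to 6.32) at 70 to 80%, 3.69 (−0.64 to 7.89) at 80 to 90% and 5.60 (−12.01 to 19.9) at 90% and over. This difference was above 0 in all 6 classes, with intervals that leave out 0 in 3 of them. The difference of G325E from vector ran from 1.95 to 5.35 points in the 5 classes below 90% and was −5.51 points (−24.3 to 11.96) at 90% and over. With the same class weights in each sample, the share was 10.0% for vector, 9.98% for wild-type and 12.8% for G325E. With 1 library per construct, a GC difference between constructs and one between libraries cannot be told apart.

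**Figure D3:**
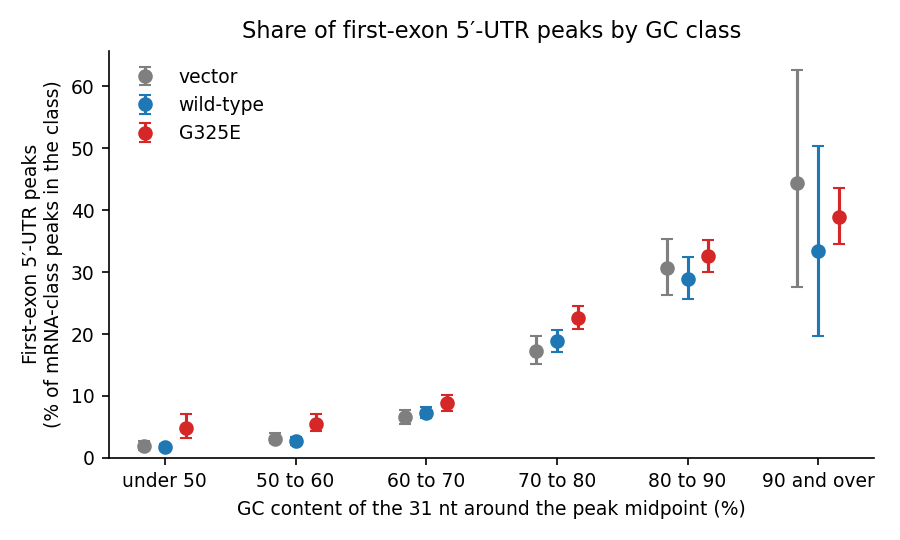
Points give the share of mRNA-class peaks that are first-exon 5′-UTR peaks (percent) within classes of GC content of the 31 nt around the midpoint, for vector, wild-type and G325E, with 95% Wilson intervals. The share climbed from under 5% below 50% GC to 28.9 to 32.6% at 80 to 90% GC in all 3 samples.

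Short motifs were counted in the 31 nt around the midpoints that lay more than 15 nt from the start codon (333 peaks for vector, 655 for wild-type and 971 for G325E), reading the strand of the gene. ATG, the start codon triplet, was present in 5.41% (3.45 to 8.38), 8.09% (6.24 to 10.4) and 6.90% (5.47 to 8.67) of windows. In all windows of the leaders of the same genes it was present in 7.78%, and in those of all genes in 13.7%. CTG, the most used near-cognate start codon, was present in 42.3% (37.2 to 47.7), 42.4% (38.7 to 46.3) and 38.6% (35.6 to 41.7) of peak windows and in 42.5% (40.9 to 44.2) of those of the same genes. The intervals for ATG hold the share in the leaders of the same genes in all 3 samples, and those for CTG hold it in vector and wild-type, whereas the share for CTG in G325E was lower.

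CGGCGG, the repeat unit of many GC-rich leaders, was present in 12.9% (9.73 to 16.9) of vector windows, 10.7% (8.55 to 13.3) of wild-type windows and 17.4% (15.1 to 19.9) of G325E windows. Its share was 10.5% in the leaders of the same genes and 5.65% in those of all genes. Among windows of 70 to 80% GC it was 11.8% (7.37 to 18.3), 11.7% (8.40 to 16.02) and 9.57% (6.82 to 13.3), with intervals that overlap. The run GGGG, found in G-quadruplexes, was present in 23.1%, 25.95% and 25.6% of windows, against 23.6% in the leaders of the same genes.

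A midpoint inside an ATG-started uORF of the canonical leader was found for 46 of 385 vector peaks (11.9%, 9.08 to 15.6), 95 of 739 wild-type peaks (12.9%, 10.6 to 15.5) and 167 of 1056 G325E peaks (15.8%, 13.7 to 18.1). Of the bases of first-exon leaders beyond 100 nt from the start site in the same genes, 16.5% lay in such uORFs.

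Peaks of 1 sample were next compared by position with those of the others, counting an overlap of at least 1 bp. Of the 1276 first-exon 5′-UTR peaks of G325E, 527 overlapped one of wild-type (41.3%, 38.6 to 44.02), against 47.3% for all G325E peaks over any wild-type peak and 62.8% for coding over coding. With vector the overlap was 335 of 1276 (26.3%, 23.9 to 28.7), against 35.4% for all peaks. In the other direction, 529 of the 921 wild-type peaks overlapped one of G325E (57.4%, 54.2 to 60.6), against 34.9% for all wild-type peaks and 31.2% for coding over coding. Of the 505 vector peaks, 340 overlapped one of G325E (67.3%, 63.1 to 71.3; all peaks 48.1%) and 379 one of wild-type (75.05%, 71.1 to 78.6; all peaks 76.8%). Of wild-type peaks, 384 overlapped one of vector (41.7%, 38.6 to 44.9; all peaks 41.6%). The all-peak shares count any peak of the other list. Counted that way, first-exon 5′-UTR peaks of G325E stood at 43.3% over wild-type and 28.1% over vector. Those of wild-type stood at 59.9% over G325E and 43.2% over vector. Those of vector stood at 72.5% over G325E and 79.6% over wild-type.

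First-exon 5′-UTR peaks of vector and wild-type were found again in the G325E list more often than all peaks of those lists. Those of G325E were found in the vector and wild-type lists less often than all G325E peaks. These shares also vary with list size. First-exon 5′-UTR peaks numbered 505, 921 and 1276 in vector, wild-type and G325E and covered 23485, 41615 and 78321 bases. Coding peaks numbered 10277 in wild-type and 5575 in G325E. How far list size accounts for the shares was not tested.

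Merged over the samples, the peaks formed 1659 loci. There were 697 loci with a peak in G325E alone (42.0%), 292 in wild-type alone, 76 in vector alone, 262 in all 3, 212 in wild-type and G325E, 82 in vector and wild-type and 38 in vector and G325E. Loci were not formed from all listed peaks. Of all G325E peaks, 47.3% overlapped a wild-type peak and 35.4% a vector peak, so peaks in G325E alone were frequent outside first-exon leaders too. Mean GC content was 80.6% ± 10.0 (SD over loci) at the loci of G325E alone, 72.2% ± 10.1 at those of all 3 samples, 68.5% ± 11.4 at those of wild-type alone and 64.9% ± 12.4 at those of vector and wild-type. Of the 697 loci of G325E alone, 677 had no wild-type peak of any class. A skipped number of the wild-type list fell in the stretch around 289 of these 697 loci, and one of the vector list around 277. The same was so for 576 and 602 of all 1659 loci, the 697 included. It was so for 80 and 90 of the 262 loci of all 3 samples, and for 74 and 93 of the 292 of wild-type alone. What the skipped numbers stand for is not known.

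**Figure D4:**
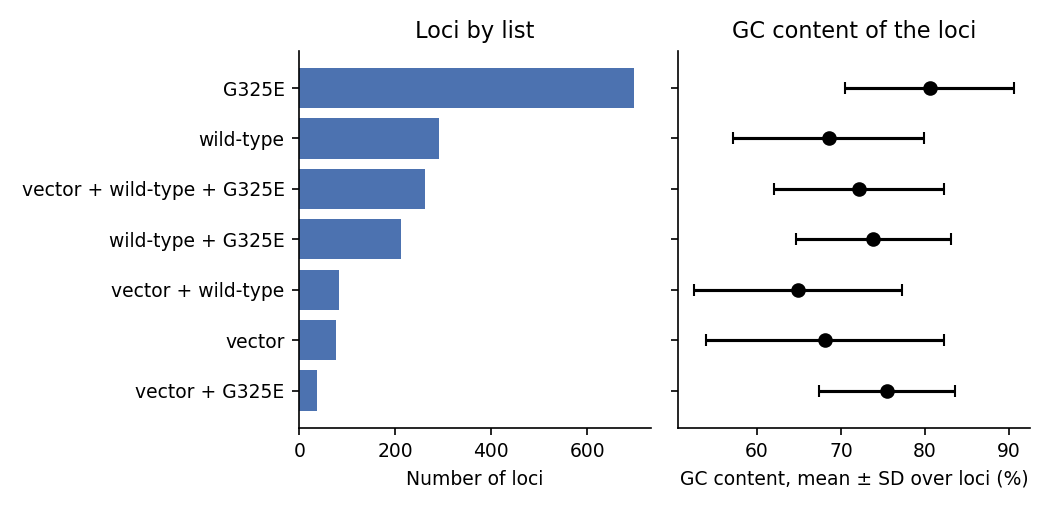
The left panel gives the number of loci by the lists in which a first-exon 5′-UTR peak was found, and the right panel their mean GC content (percent) with the SD over loci. The 697 loci of G325E alone had the highest mean, 80.6%, and the 82 of vector and wild-type the lowest, 64.9%.

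A first-exon 5′-UTR peak was listed for 275, 442 and 600 genes in vector, wild-type and G325E, and 750 had one in any sample. Of the genes with an mRNA-class peak, these were 19.2%, 19.7% and 37.7%. A single peak was the most frequent number, at 157, 224 and 285 genes. There were 194 genes with such a peak in all 3 samples and 268 in G325E alone. The same count was not made for other classes of peak. The 194 shared genes held 377 of the vector peaks, 438 of the wild-type peaks and 467 of the G325E peaks.

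The 268 genes of G325E alone held 488 peaks, of mean GC content 80.8%, against 72.01% in the 194 shared genes. In the G325E list 156 of them also had a coding peak and 209 a promoter-TSS peak. Of the 268, 99 had any mRNA-class or promoter-TSS peak in wild-type and 72 in vector. Of the 93 genes with a first-exon 5′-UTR peak in wild-type alone, 35 had any such peak in vector and 30 in G325E. Over all genes with a first-exon 5′-UTR peak, a coding peak was listed in the same sample for 66.5% (60.8 to 71.9) for vector, 70.8% (66.4 to 74.9) for wild-type and 61.8% (57.9 to 65.6) for G325E.

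Peak numbers per gene were compared after scaling to the total of mRNA-class peaks, in genes with at least 3 first-exon 5′-UTR peaks in 1 of the 2 samples. Set against wild-type, 114 of 210 genes (54.3%) had a number at least 2-fold larger in G325E and 26 (12.4%) one at least 2-fold smaller, where for coding peaks 23% of 1550 genes had more and 45.9% fewer. Without scaling, 117 of the 210 genes had a higher number in G325E, 21 the same and 72 a lower one. Of the 210, 62 had no such peak in wild-type and 26 had none in G325E. After scaling, every gene with at least 3 such peaks in G325E and fewer than 3 in wild-type counted as at least 2-fold larger. The share of genes with more was thus set in part by the filter and the scaling, which were the same for coding peaks. Against vector, 108 of 178 genes (60.7%) had at least 2-fold more in G325E and 11 (6.18%) fewer, with 28% and 32.9% for coding peaks. Between wild-type and vector, 56 of 129 genes (43.4%) had more and 24 (18.6%) fewer, with 37.6% and 17.6% for coding peaks, so that this pair was close to its coding background. The comparisons with G325E share that library, and those with wild-type or vector share theirs.

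Among the genes with the most first-exon 5′-UTR peaks, U2AF2, which encodes the large subunit of the splicing factor that binds the polypyrimidine tract, had 9, 9 and 13 peaks in vector, wild-type and G325E (chr19:56165579-56166473). JUN, an AP-1 transcription factor encoded by a single exon, had 2, 12 and 13 (chr1:59248751-59249704), covering 72, 742 and 690 bases. MESDC1, now named TLNRD1, had 0, 14 and 13, of which 6 lay on the opposite strand. JUN and MESDC1 were high in both DDX3X samples and low or without a peak in vector, whereas U2AF2 was listed in all 3.

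Other genes had several peaks in each of the 3 samples. ATP2A2, which encodes the calcium pump of the endoplasmic reticulum, had 7, 8 and 5 peaks in vector, wild-type and G325E. GSK3B, the kinase that marks β-catenin for degradation, had 5, 7 and 6. TMEM65, which encodes a membrane protein, had 7, 7 and 7. BMPR2, a receptor for bone morphogenetic proteins, had 6, 6 and 5, PDS5A, a cohesin regulator, had 6, 5 and 6, and PCDH19, a protocadherin, had 5, 8 and 7. FZD1, a Wnt receptor, had 7, 4 and 4.

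JTB had 2, 8 and 6, covering 213, 301 and 267 bases. SQLE, the squalene epoxidase of cholesterol synthesis, had 0, 7 and 9, with the vector list alone lacking a peak. Numbers for MTRNR2L2 (9, 11 and 7) and MTRNR2L1 (6, 9 and 5) are uncertain, since these genes are near copies of the mitochondrial large rRNA gene. In all, MTRNR2L genes held 21, 24 and 12 of the first-exon 5′-UTR peaks.

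Of genes with at least 3 such peaks in 1 sample, the largest excess of G325E over wild-type was at EGLN1 and STK11. EGLN1, the prolyl hydroxylase that marks HIF1A for degradation, had 0, 0 and 9 peaks in vector, wild-type and G325E (chr1:231557686-231558375), 4 of them on the opposite strand, along with 7 coding peaks in G325E and 0 in the other samples. STK11, the kinase LKB1 upstream of AMPK, had 0, 0 and 9 (chr19:1206002-1206902), with 6 promoter-TSS peaks in G325E and 0 elsewhere. UBE3A, the ubiquitin ligase of Angelman syndrome, had 0, 0 and 7 (chr15:25683637-25684077) and 0 coding peaks in any sample. The mean GC content under these peaks was 78.9%, 81.7% and 82.0%, and no peak number of the vector or wild-type list was skipped there.

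UBE2D2, a ubiquitin-conjugating enzyme, had 0, 2 and 8, covering 0, 95 and 373 bases, and UBP1, a transcription factor, had 0, 1 and 7. There the wild-type list skipped 3 and 2 peak numbers. All 5 of these genes had 0 first-exon 5′-UTR peaks in vector.

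The largest deficit of G325E against wild-type was at TIAL1, which encodes an RNA-binding protein of stress granules. It had 5, 7 and 0 peaks in vector, wild-type and G325E, with 5 of the 12 on the opposite strand, and its coding peaks numbered 1, 1 and 0. MYC, the proto-oncogene transcription factor, had 0, 6 and 0, while its coding peaks were 18, 20 and 11. UBL3, a ubiquitin-like protein, had 0, 11 and 6, but these covered 0, 239 and 290 bases, more in G325E than under wild-type. ELOVL6, a fatty acid elongase, had 3, 5 and 0, and CACYBP, which binds calcyclin, had 0, 5 and 0. TIAL1 and ELOVL6 were thus listed in both samples other than G325E, and MYC and CACYBP in wild-type alone.

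**Figure D5:**
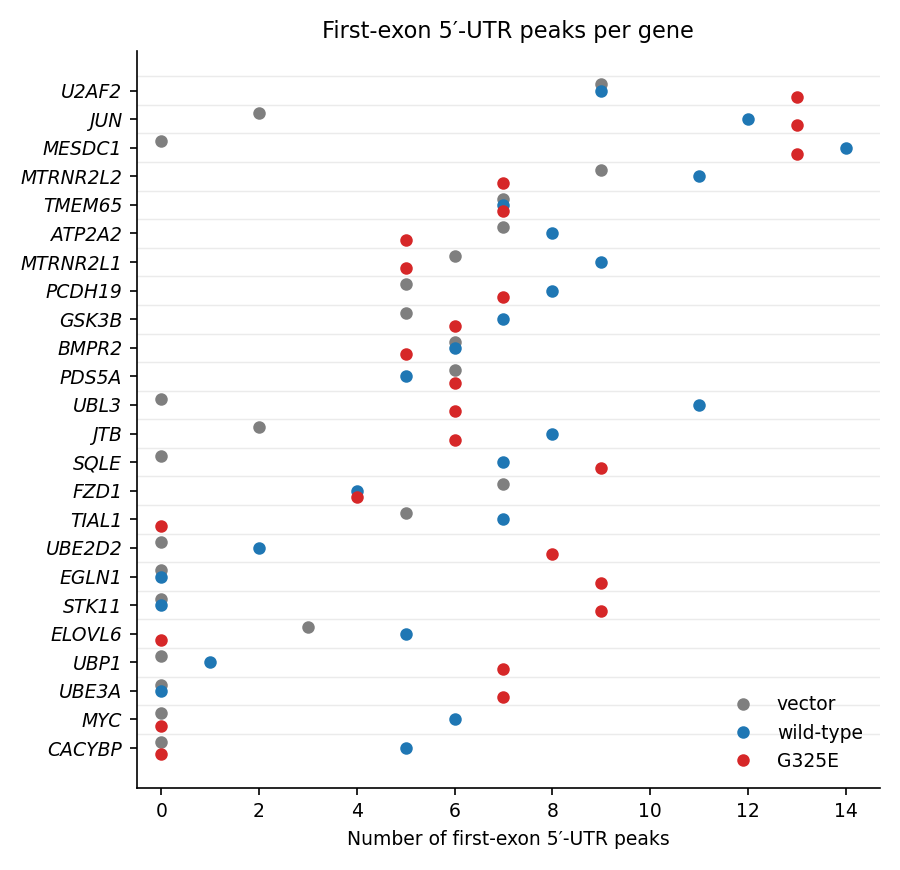
Points give the number of first-exon 5′-UTR peaks of each named gene in vector, wild-type and G325E (1 library each). EGLN1, STK11 and UBE3A had peaks in G325E alone (9, 9 and 7), TIAL1 had 5, 7 and 0, and TMEM65 had 7 in each sample.

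Gene groups were described by how many of their listed genes, meaning genes with an mRNA-class or promoter-TSS peak in any sample, had a first-exon 5′-UTR peak. Over all 3411 listed genes 21.99% had one in any sample, and 275, 442 and 600 had one in vector, wild-type and G325E. Ubiquitin ligases and conjugating enzymes, which attach ubiquitin to proteins, stood at 8, 16 and 18 of 56 genes (41.1% in any sample), with 13, 35 and 60 peaks. Beside UBE2D2, RNF150 had 0, 3 and 8 peaks, UBE2D3 had 4, 5 and 5, and UBE2R2 had 3, 4 and 4. The vector and wild-type lists skipped 1 and 5 numbers around RNF150, and 6 and 5 around UBE2R2.

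Chromatin remodellers and histone modifiers had 0, 1 and 7 of 29 genes and 0, 2 and 19 peaks in vector, wild-type and G325E. Their share in any sample was 24.1%, near that of all genes, whose number was also highest in G325E (275, 442 and 600), and the difference between the group and all genes was not tested. HDAC4, a histone deacetylase, had 0, 0 and 6 peaks at a mean GC content of 87.6%, of which 3 lay on the opposite strand. KDM5C, a histone H3 lysine 4 demethylase encoded on the X chromosome, had 0, 0 and 4, ARID1A, a subunit of the SWI/SNF complex, had 0, 0 and 3, and SMARCD2, of the same complex, had 0, 2 and 2. Mean GC content under the peaks of this group was 78.0%, against 73.9% over all genes.

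Signalling groups were small, with a larger share of genes holding a first-exon 5′-UTR peak in any sample than over all genes. Of 12 genes of the MAP kinase pathway, 2, 1 and 5 had such a peak (41.7% in any sample), with MAP2K1 at 4, 3 and 4 peaks and MAPK9 at 1, 0 and 2. Protein phosphatase subunits stood at 4, 5 and 7 of 24 genes (37.5%), with PPP1R2 at 2, 3 and 3 and PPP2CB at 2, 1 and 4. Among 8 growth and Wnt genes linked to DDX3X, 2, 3 and 4 had such a peak (62.5% in any sample), and those with one in any sample were GSK3B, MYC, RAC1 (1, 1 and 2 peaks), CSNK1E (0, 0 and 1) and, named after its value was seen, CTNNB1 (0, 0 and 1). The vector and wild-type lists skipped 4 and 3 numbers around MAPK9, and 2 and 3 around PPP2CB. They skipped 1 and 4 around RAC1, and 4 and 4 around CSNK1E.

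Transcription factors varied. Immediate-early genes with AP-1 and MAF factors stood at 2, 2 and 3 of 7 genes (42.9% in any sample). They held 3, 17 and 24 peaks, most of them in JUN. MAF had 1, 5 and 8 peaks in a stretch where the vector list skipped 3 numbers and the wild-type list 9, and IER5 had 0, 0 and 3. HOX, SOX and FOX factors stood at 3, 4 and 5 of 34 genes (17.6% in any sample). FOXO3 had 0, 1 and 3 peaks, SOX4 and SOX12 each had 1, 1 and 2, and HOXB9 had 2, 2 and 0. The vector and wild-type lists skipped 3 and 3 numbers around FOXO3, 6 and 3 around SOX12, and 0 around SOX4 and HOXB9. Zinc finger ZNF genes stood at 1, 1 and 2 of 27 (7.41% in any sample), and cyclins and cyclin-dependent kinases at 1, 0 and 1 of 6 (16.7%).

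Genes of the stress response with uORF control stood at 2, 3 and 4 of 8 (50% in any sample). The number over all listed genes was also highest in G325E, and the difference between this group and all genes was not tested. CEBPB, a transcription factor whose isoforms depend on a uORF, had 4, 3 and 7 peaks, with 8 of the 14 on the opposite strand. IFRD1 had 1, 2 and 2, EIF1 had 0, 1 and 2, and ATF5 had 0, 0 and 1. The vector and wild-type lists skipped 3 and 3 numbers around CEBPB, and 2 and 2 around IFRD1. Solute carriers, the membrane transporters, stood at 6, 13 and 11 of 48 genes (31.25% in any sample). SLC30A5, a zinc transporter, had 0, 4 and 3 peaks and SLC1A5, a glutamine transporter, had 3, 2 and 2.

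Among genes that act on mRNA, ribosomal proteins and DEAD and DEAH box helicases had first-exon 5′-UTR peaks less often than all listed genes did (21.99%). The eIF initiation factors and the hnRNP and SR proteins were close to that share. Ribosomal proteins stood at 6, 8 and 6 of 76 genes (11.8% in any sample) with 8, 15 and 9 peaks, at a mean GC content of 60.7%. RPS14 had 2, 3 and 3 peaks and RPL6 had 2, 2 and 2. The eIF initiation factors stood at 3, 4 and 4 of 29 (20.7% in any sample) with 3, 4 and 6 peaks, among them EIF1AX at 1, 1 and 2. DEAD and DEAH box helicases, the family of DDX3X, stood at 0, 1 and 0 of 23 (4.35%), the single gene being DDX21 with 2 peaks in wild-type. hnRNP and SR proteins, which package and splice mRNA, stood at 6, 6 and 7 of 33 (21.2% in any sample), with TRA2B at 3, 3 and 3 and HNRNPU at 1, 1 and 2.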

How the data were processed

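Per the labels, 3 ribosome-profiling libraries of HEK293T cells were deposited, 1 per construct, placed in groups by title. As the study describes it, the authors trimmed adapters, aligned reads with BWA (0.5.5 in the submitters' processing notes, which also name cutadapt) to the human genome (hg19), removed duplicates, called peaks from coverage in each sample separately and reviewed them by eye. The HOMER version is not given in the sources used here. Each deposited row held other kinds of value than a count, namely a peak position, strand, region, gene and distance to the nearest start site.

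From these, shares of peaks, overlaps (at least 1 bp), GC content (31 nt of GRCh37) and positions on GENCODE release 44 canonical transcripts lifted to GRCh37 were computed in Python 3.11.15 with numpy 2.4.6, pandas 2.3.3 and statsmodels 0.14.6. The scripts were tested on simulated data. The share of first-exon 5′-UTR peaks whose midpoint lay in a canonical 5′-UTR was 81.3%. A peak's gene was that of its annotated transcript, and 74 peaks whose gene strand was not found were left out of strand counts.

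Named genes were the 15 with most first-exon 5′-UTR peaks, the 5 with the largest difference of G325E from wild-type in each direction, and up to 4 per list for 16 lists by symbol, of which 1 is not reported here. The members and lists were chosen with earlier results of these data known.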

Additional observations from a re-analysis of the deposited data

How the results depend on the processing

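No paired analysis was possible because there was 1 library per construct and the labels gave no replicate numbers. The share of first-exon 5′-UTR peaks was higher in G325E than in wild-type and in vector under all 13 alternatives, by 0.520 to 18.0 and 1.19 to 18.6 points. No interval was computed for the alternatives, so whether the smallest of these differences exceed counting error is not known. Values for G325E minus wild-type, then minus vector, were 3.51 and 3.64 points over all listed peaks, 13.0 and 12.9 weighted by peak length, 4.46 and 4.57 in genes with a peak in all 3 samples, 13.99 and 14.4 by canonical regions with promoter-TSS peaks included, 2.84 and 2.82 at equal GC content, 7.82 and 7.21 without stretches of skipped peak numbers, and 18.0 and 18.6 with genes as the unit. Among alternatives chosen after seeing the data they were 4.37 and 4.47 with promoter-TSS peaks in the denominator, and 0.520 and 1.19 at equal GC content in genes with a peak in all 3 samples, the smallest differences. The other 4 alternatives gave values within the counting interval. Wild-type minus vector ran from −0.61 to 0.67 points, within its interval under all 13. The overlaps of G325E with wild-type, G325E with vector and wild-type with vector were 37.4%, 22.6% and 36.6% when at least 50% of the peak had to overlap, and 62.1%, 51.4% and 60.2% in genes with a peak in all 3 samples. Apart from what each alternative leaves out or reweights by construction, the cause was not tested. Limits are the single library per construct, the lack of read counts per peak, and the peak numbers skipped in the vector and wild-type lists.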
